A study of Homo sapiens with 9 samples.

Results

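The genes described here are H19, IGF2, the receptors IGF1R, IGF2R and INSR, the binding proteins IGFBP3, IGFBP4, IGFBP6 and IGFBP7, and the RNA-binding protein gene IGF2BP2. These 10 genes were chosen by symbol, among 57820 genes counted for Kyse150 and 60683 counted for TE11, of which 52165 identifiers stand in both tables. They were chosen because H19 and IGFBP4 were nearly or wholly without counts everywhere but in the TE11 control libraries. The values in TE11, and the low values of H19 and IGFBP4 in Kyse150, therefore describe that choice and carry no test. The study asked which genes respond when KDM2A, a histone H3K36 demethylase, is depleted in esophageal squamous cell carcinoma. Kyse150 and TE11 are both lines of that carcinoma, grown in RPMI 1640 medium with serum. Each line was given either a control shRNA (shNC) or an shRNA against KDM2A (shKDM2A) by lentivirus, and polyadenylated RNA was sequenced. Kyse150 has 2 shNC and 2 shKDM2A libraries, and TE11 has 3 shNC and 2 shKDM2A libraries. The labels give neither the sequence nor the number of the hairpins, and no time after infection. The protocol mentions 3 independent replicates, whereas 3 of the 4 groups have 2 libraries here, and it does not say what made them independent. A p-value here therefore rests on library-to-library spread that may be technical only.

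Insulin-like growth factors are small secreted hormones that drive growth by activating IGF1R and, in part, the insulin receptor INSR, both of which are tyrosine kinases that signal through IRS adaptors to PI3K and AKT. IGF2R is a scavenger that carries IGF2 to lysosomes, and the IGF binding proteins hold the ligands outside the cell and control how much of them reaches a receptor. H19 and IGF2 are imprinted neighbours on chromosome 11 that share enhancers, with H19 made from the maternal and IGF2 from the paternal copy in most fetal tissues. H19 makes a long noncoding RNA that is abundant in the fetus, silent in most adult tissues and often made again in tumours, and it holds the precursor of miR-675.

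H19 lies at chr11:1995176-2001470 on the minus strand of GRCh38 (GENCODE release 29) and is annotated as a noncoding transcript. The products and the opposite-strand features that lie inside its exons are printed because they bear on what the H19 counts hold. The mature miRNAs are from RefSeq (GRCh38.p14), written 5′ to 3′ with the seed, bases 2 to 8, in capitals. They lie on the minus strand at chr11:1996800-1996822 and chr11:1996768-1996787.
hsa-miR-675-5p: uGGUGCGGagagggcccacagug
hsa-miR-675-3p: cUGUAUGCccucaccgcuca
The opposite-strand features are RF01972, at chr11:1996540-1996610, and RF01973, at chr11:1997484-1997552, both on the plus strand of GRCh38 and taken from GENCODE transcripts. They are 71 and 69 bases long.
RF01972: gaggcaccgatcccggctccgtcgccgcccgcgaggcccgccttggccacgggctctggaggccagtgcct
RF01973: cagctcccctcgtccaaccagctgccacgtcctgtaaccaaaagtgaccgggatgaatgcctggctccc

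The promoters of IGFBP4 and IGFBP3, which were low together outside the TE11 controls, are printed beside that of IGF1R, which had counts in every library. Each is the 250 bases before the RefSeq start (GRCh38.p14), 5′ to 3′ on the gene's strand, with every CG in capitals. IGFBP4 is at chr17:40443200-40443449 on the plus strand, IGFBP3 at chr7:45921273-45921522 on the minus strand and IGF1R at chr15:98648289-98648538 on the plus strand.
IGFBP4: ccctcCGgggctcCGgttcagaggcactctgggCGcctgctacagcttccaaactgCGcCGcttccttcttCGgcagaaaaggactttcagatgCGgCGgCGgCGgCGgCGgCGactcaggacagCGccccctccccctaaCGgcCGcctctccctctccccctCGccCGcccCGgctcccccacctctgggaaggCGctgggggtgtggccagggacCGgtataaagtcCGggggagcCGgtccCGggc
IGFBP3: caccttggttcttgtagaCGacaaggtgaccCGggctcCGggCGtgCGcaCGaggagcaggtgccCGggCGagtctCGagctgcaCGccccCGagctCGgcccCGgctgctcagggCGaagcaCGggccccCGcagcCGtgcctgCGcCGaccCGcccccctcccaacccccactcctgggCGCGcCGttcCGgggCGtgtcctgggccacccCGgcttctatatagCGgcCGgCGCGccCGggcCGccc
IGF1R: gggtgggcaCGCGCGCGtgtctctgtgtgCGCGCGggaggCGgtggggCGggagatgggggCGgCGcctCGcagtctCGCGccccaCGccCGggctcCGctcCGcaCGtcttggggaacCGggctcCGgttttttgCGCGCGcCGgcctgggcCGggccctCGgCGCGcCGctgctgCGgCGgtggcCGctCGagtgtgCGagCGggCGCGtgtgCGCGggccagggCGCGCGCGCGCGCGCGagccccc
RefSeq promoters were matched for 8 of the 10 genes, with none for IGF2 and IGFBP7. The IGFBP4 window holds 24 CG, that of IGFBP3 holds 32 and that of IGF1R 48, against a median of 11 (quartiles 3 and 23) over 35116 human promoters of the same length. IGFBP6, another binding protein with counts in every library, holds 9. A window with more CG than the median was thus found in IGFBP4, which lacked counts outside the TE11 controls, and in IGFBP3 and IGF1R, which did not. The letters TATAAA, searched on both strands, occur in the IGFBP4 window and in 10.7% of all promoters, and GGGCGG occurs in the windows of all 3 genes printed and in 42.6% of all promoters. The H19 entry holds 4 CG and is not printed, since 10 of its 12 GENCODE transcripts start over 1 kb downstream of it.

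Libraries held 6052883 to 7167055 counts on genes in Kyse150 and 8457767 to 12073098 in TE11. Values are given as counts, and as CPM, in which each count is set relative to the TMM-scaled total of its library. All 8 squamous epithelial markers, KRT5 and TP63 among them, were above 1 CPM in every group. KDM2A itself stood at 172 and 175 CPM in the Kyse150 controls and at 107 and 104 CPM in the knockdown libraries, lower by edgeR's quasi-likelihood test (log2 fold change -0.71, SE 0.07, adjusted p = 3.87e-09). In TE11 it stood at 116 to 120 CPM in the controls and at 126 and 140 CPM in the libraries labelled knockdown, which goes against their label (log2 fold change 0.16, SE 0.07, edgeR adjusted p = 0.0335). That call was lost in 7 of 12 alternative fits. The edgeR adjusted p was 0.398 without labelled knockdown replicate 2, 0.0772 without control replicate 2 and 0.0969 without control replicate 3. Over 12086 coding genes, the labelled TE11 knockdown libraries correlated at r = 0.923 to 0.928 with the Kyse150 controls and at r = 0.781 to 0.783 with the TE11 controls. Directions in TE11 are therefore those of the labels only.

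H19 was among the most abundant transcripts of the TE11 controls and was almost absent elsewhere. The 3 TE11 control libraries held 29670, 26616 and 31978 H19 counts, and the 2 labelled knockdown libraries held 15 and 11. The Kyse150 controls held 27 and 42, and the Kyse150 knockdown libraries 42 and 47. The TE11 controls stood far above the other 6 libraries, which held 11 to 47 counts. In CPM this was 2541 ± 190 (SD, n = 3) in the TE11 controls and 1.48 ± 0.369 (SD, n = 2) in the labelled knockdown libraries. The fitted level was 1704-fold lower (log2 fold change -10.73). Its log2 fold change was -11.0 without labelled knockdown replicate 1 and -10.49 without replicate 2. Per kilobase of exon, H19 ranked 26 of 58496 genes in the TE11 controls and 14064 in the labelled knockdown libraries. In bulk RNA, fewer cells that make a transcript and less RNA per cell cannot be told apart. Within Kyse150, H19 stood at 4.97 ± 1.62 CPM in the controls and 6.93 ± 0.949 in the knockdown libraries (SD, n = 2 each). These groups did not overlap, but the fitted log2 fold change of 0.48 (SE 0.28) ranged from 0.17 without control replicate 1 to 0.85 without control replicate 2.

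Counts on the features inside the H19 exons separated by strand. MIR675, on the strand of H19, held 0 counts in all 5 TE11 libraries. RF01972, on the other strand, held 8544, 7430 and 8471 counts in the TE11 controls and 3 and 4 in the labelled knockdown libraries. RF01973 held 6072, 5318 and 7120, and then 3 and 5. Both features were high in the same 3 libraries as H19, and together they held 47.9 to 49.3 counts for every 100 of H19 in the controls. Across the TE11 table, small features inside an exon of 1 host gene with at least 1000 counts held 10 or more counts in 28 of 59 cases when they lay on the other strand, and in 0 of 268 when they lay on the host's strand. How the counting treated strand is not stated in the sources used here, so reads of H19 and of the opposite strand cannot be told apart. These 3 features are not in the Kyse150 table. A level of H19 set across the lines therefore rests on tables with different annotations.

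**Figure D1:**
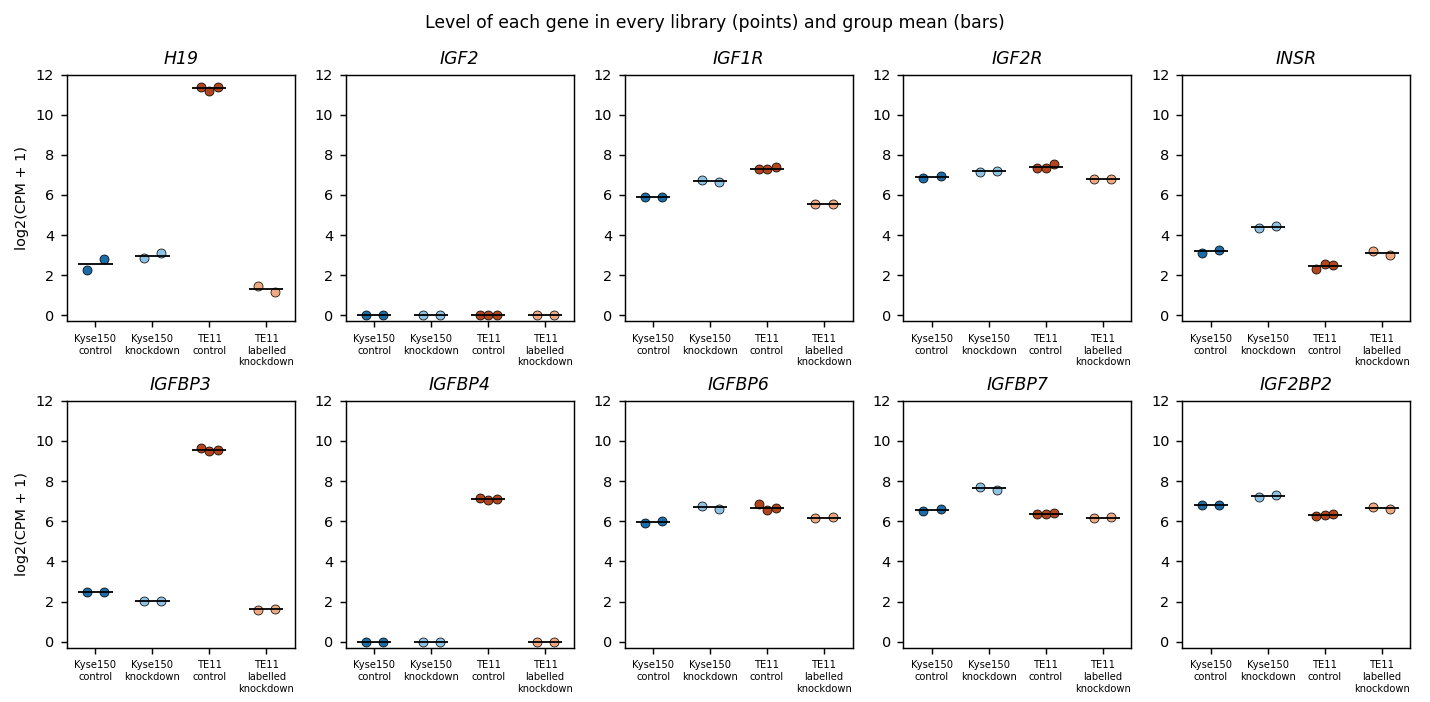
Level of each of the 10 genes in every library, as log2(CPM + 1) on the vertical axis, by group on the horizontal axis; points are libraries and bars are group means on that scale. H19, IGFBP3 and IGFBP4 are high in the 3 TE11 controls alone, and IGF2 is at 0 in all 9 libraries.

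IGF2, the ligand gene, held 0 counts in all 9 libraries. A count of 0 allows up to 0.0864 CPM in the TE11 controls and 0.171 CPM in the labelled knockdown libraries, by 3 counts over the group. In Kyse150 the limits are 0.215 CPM in the controls and 0.233 CPM in the knockdown libraries. IGF2 lies at chr11:2129112-2149603 on the minus strand, and 75% of its exon bases are shared with other annotated genes. The largest overlap, 73.7%, is with another identifier of IGF2 that only the TE11 table lists, and INS-IGF2 covers 20.9%. The tables set ambiguous fragments aside, 1.85% to 2.72% of a column, so the limits hold for counted fragments and not for IGF2 RNA as a whole. Both overlapping genes were also at 0. The abundant H19 of the TE11 controls was thus not accompanied by any counted fragment of its imprinted neighbour.

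The binding protein genes divided into those high in the TE11 controls alone, IGFBP3 and IGFBP4, and those present in every library, IGFBP6 and IGFBP7. IGFBP3, the main carrier of IGFs in blood, held 9124, 8186 and 8970 counts in the TE11 controls and 17 and 19 in the labelled knockdown libraries. In Kyse150 it held 32 and 31 counts in the controls and 21 and 19 in the knockdown libraries. The TE11 controls again stood alone, at 757 ± 47.4 CPM (SD, n = 3) against 2.05 ± 0.0957 (SD, n = 2), a 368-fold lower fitted level (log2 fold change -8.52). IGFBP4, a secreted protein that mostly blocks IGF action, held 1598, 1521 and 1637 counts in the TE11 controls and 0 in the other 6 libraries. Against 3 counts over the group, it was at least 803-fold lower in the labelled knockdown libraries. The annotated exons of IGFBP3 and IGFBP4 share no base with another gene. The summed level of 7 fibroblast markers moved the same way, at 18.6 to 22.0 CPM in the TE11 controls and 2.79 to 3.89 CPM in the labelled knockdown libraries. Of the 7 markers, 3 were above 1 CPM in the TE11 controls, COL1A1 (16.1 CPM), COL3A1 (2.22 CPM) and PDGFRB (1.30 CPM). The other 4, COL1A2, DCN, LUM and PDGFRA, stood at 0.0295 to 0.691 CPM. In the labelled knockdown libraries COL1A1 stood at 2.95 CPM, and COL3A1, DCN and LUM were at 0. The fall was not particular to fibroblast markers. The 8 squamous markers summed to 4199 to 4699 CPM in the TE11 controls and 1571 to 1622 in the labelled knockdown libraries, although PKP1 was higher there. The endothelial markers summed to 5.93 to 7.94 and then 1.05 to 1.67 CPM, while the columnar and leukocyte sums overlapped. The part of other cell types in these values was not tested.

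IGFBP6, which prefers IGF2 over IGF1, held 1283, 1071 and 1185 counts in the TE11 controls and 598 and 650 in the labelled knockdown libraries. That is 102 ± 10.4 CPM (SD, n = 3) against 71.0 ± 1.92 (SD, n = 2), without overlap (log2 fold change -0.52, SE 0.08). IGFBP7, a relative that binds IGFs weakly and is secreted into the matrix, stood at 80.8 to 83.6 CPM in the TE11 controls and at 70.9 and 72.0 CPM in the labelled knockdown libraries. Its groups did not overlap either, but the difference was small (log2 fold change -0.20, SE 0.08). Of these 4 binding proteins, IGFBP3 was low both in Kyse150 and in the labelled knockdown libraries. IGFBP4 was without counts in both, but that is what it was chosen for, so nothing is read from it.

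Per kilobase of exon, the 7 genes IGFBP1 to IGFBP7 summed to 358 ± 20.2 CPM in the TE11 controls (SD, n = 3) and to 90.2 ± 1.85 in the labelled knockdown libraries (SD, n = 2). IGFBP3 made up 46.2% of that sum in the TE11 controls, IGFBP6 21.1%, IGFBP4 17.4%, IGFBP7 11.9% and IGFBP2 3.12%. In the labelled knockdown libraries IGFBP6 made up 58.5% and IGFBP7 41.0%. The Kyse150 controls had a sum of 94.9 ± 3.86 and a make-up of 50.5% IGFBP7 and 48.5% IGFBP6 (n = 2). In Kyse150 knockdown libraries the sum was 179 ± 11.3, with 57.1% IGFBP7 and 42.5% IGFBP6 (n = 2). In the labelled TE11 knockdown libraries the sum thus consisted mainly of IGFBP6 and IGFBP7, as in Kyse150. The lack of IGFBP4 in both was set by the choice of genes. Its part in this likeness, and in the lower sum, is therefore not a result.

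**Figure D2:**
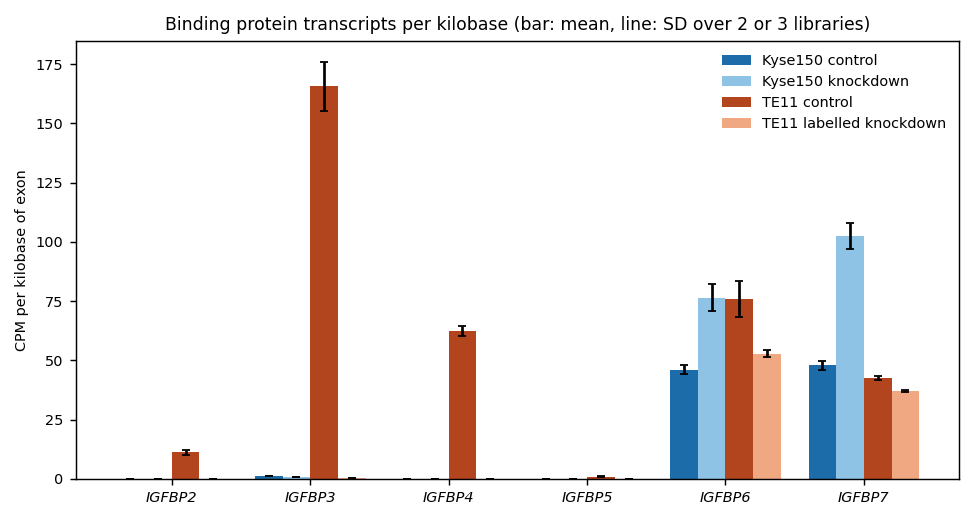
Mean CPM per kilobase of exon of IGFBP2 to IGFBP7 in the 4 groups; bars start at 0 and lines are the SD over 2 or 3 libraries. IGFBP3 reaches 166 and IGFBP4 62.3 in the TE11 controls, and both are near or at 0 in the other groups, where IGFBP6 and IGFBP7 make up nearly the whole.

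Of the receptors, IGF1R and IGF2R were lower and INSR was higher in the labelled TE11 knockdown libraries. IGF1R stood at 154, 154 and 168 CPM in the TE11 controls and at 45.9 and 45.5 CPM in the labelled knockdown libraries (log2 fold change -1.80, SE 0.08). IGF2R stood at 162, 161 and 184 CPM in the controls and at 112 and 108 CPM in the labelled knockdown libraries (log2 fold change -0.62, SE 0.07). INSR stood at 3.90, 4.89 and 4.68 CPM in the controls and at 8.26 and 7.01 CPM in the labelled knockdown libraries (log2 fold change 0.76, SE 0.21). In none of the 3 receptors did the groups overlap. Per kilobase, the ratio of IGF1R to INSR was 26.7 ± 3.01 in the TE11 controls (SD, n = 3) and 4.51 ± 0.50 in the labelled knockdown libraries (SD, n = 2). In Kyse150 it was 5.48 ± 0.474 in the controls and 3.80 ± 0.354 in the knockdown libraries (SD, n = 2 each). The TE11 controls were the one group in which IGF1R was above IGF2R per kilobase, with IGF2R at 0.833 ± 0.0226 of IGF1R. IGF2BP2, which codes for a protein that binds and stabilises mRNAs including that of IGF2, stood at 76.1, 79.3 and 80.6 CPM in the TE11 controls. In the labelled knockdown libraries it stood at 102 and 96.2 CPM, without overlap (log2 fold change 0.34, SE 0.07).

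Of the 16453 genes tested in TE11, edgeR called 78.1%. There, 9 of the 10 genes passed the filter on low counts, all but IGF2, and all 9 had groups that did not overlap, 7 lower and 2 higher. Groups did not overlap in 84.3% of all genes tested, 45.2% lower and 39.1% higher. H19, IGF1R, IGFBP3 and IGFBP4 were fitted at less than 50% of the control level, as were 26.8% of all genes. The median log2 fold change was -0.62, also with IGFBP4 at its bound, against -0.09 over all genes. These genes were chosen for this contrast, and nothing is read from their count.

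In Kyse150, where the targeted gene fell, 6 of the 7 genes given a test rose with KDM2A knockdown and none fell. Of all 14060 genes tested, 24.8% were called higher and 23.3% lower, 48.2% in all, so a large share of the transcriptome moved. Of the 10 genes, 8 passed the filter and H19 among these was given no test. IGF2 and IGFBP4 were at 0. The groups of these 8 did not overlap, 7 higher and 1 lower, as was so for 73.3% of all genes, 37.1% higher and 36.2% lower. None of the 8 was fitted at less than 50% of the control level, as 2.27% of all genes were. The median log2 fold change of the 8 was 0.60, against 0.00 over all genes.

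The receptors rose together in Kyse150. INSR counts were 54 and 59 in the controls and 130 and 131 in the knockdown libraries, and its level rose from 8.12 ± 0.672 to 20.3 ± 1.28 CPM (SD, n = 2 each). The INSR change was the largest of the 7 tested (log2 fold change 1.32, SE 0.19, edgeR adjusted p = 1.33e-06). IGF1R counts were 419 and 405 in the controls and 703 and 621 in the knockdown libraries. Its level rose from 59.2 ± 0.224 to 103 ± 3.06 CPM (log2 fold change 0.79, SE 0.08, edgeR adjusted p = 1.46e-08). IGF2R stood at 116 and 121 CPM in the controls and at 143 and 148 CPM in the knockdown libraries, a smaller rise (log2 fold change 0.30, SE 0.07, edgeR adjusted p = 0.00125). All knockdown values of the 3 receptors lay above all control values.

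Among the binding proteins tested in Kyse150, IGFBP6 and IGFBP7 rose as well, and IGFBP3 did not. IGFBP7 stood at 89.6 and 95.1 CPM in the controls and at 205 and 190 CPM in the knockdown libraries (log2 fold change 1.10, SE 0.07, edgeR adjusted p = 1.51e-12). IGFBP6 stood at 60.2 and 63.7 CPM in the controls and at 108 and 97.4 CPM in the knockdown libraries (log2 fold change 0.73, SE 0.09, edgeR adjusted p = 9.23e-08). The groups of both genes were well apart. IGFBP3 was low, at 4.53 and 4.52 CPM in the controls and 3.13 and 3.07 CPM in the knockdown libraries. Its groups did not overlap, yet the difference did not pass the test (log2 fold change -0.54, SE 0.32, edgeR adjusted p = 0.166), at 19 to 32 counts a library. IGF2BP2 stood at 110 and 112 CPM in the controls and at 149 and 159 CPM in the knockdown libraries, and rose (log2 fold change 0.47, SE 0.07, edgeR adjusted p = 4.72e-06). Each of the 6 calls was kept in all 12 alternative fits. The summed level of the 7 fibroblast markers was also higher, at 6.37 to 6.70 CPM in the controls and 10.8 to 11.8 CPM in the knockdown libraries. Nearly all of it was COL1A1, which rose from 6.39 CPM (log2 fold change 0.78, SE 0.22, edgeR adjusted p = 0.00456), while COL1A2, DCN and PDGFRA were at 0 in both groups. The part of such cells in the rises of IGFBP6 and IGFBP7 was not tested.

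IGFBP7 lies at chr4:57030773-57110385 on the minus strand, and 18.9% of its exon bases are shared with genes on the plus strand, chiefly POLR2B with 14.0%. IGFBP7-AS1, an antisense gene with 4.87% of these bases, stood at 34.3 ± 5.87 CPM in the Kyse150 controls and 79.1 ± 4.53 in the knockdown libraries (SD, n = 2 each). It rose (log2 fold change 1.21, SE 0.11, edgeR adjusted p = 6.13e-10), beside 1.10 for IGFBP7. In TE11 it stood at 35.7 ± 3.02 CPM (SD, n = 3) in the controls and at 27.3 ± 1.35 (SD, n = 2) in the labelled knockdown libraries. Without the strand setting, reads of this pair cannot be told apart.

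**Figure D3:**
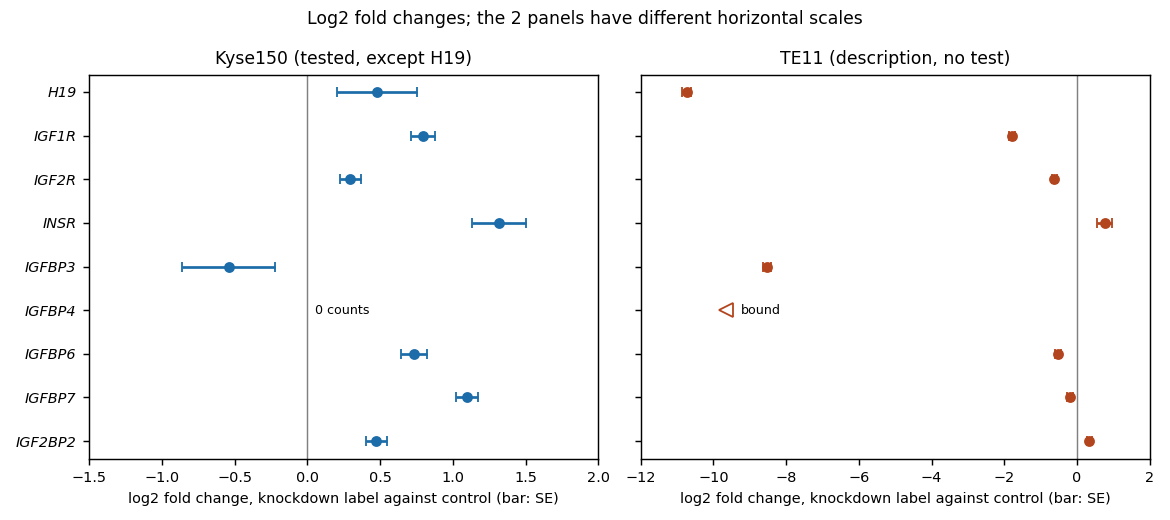
Log2 fold change of each gene with its SE (bars), knockdown label against control, in Kyse150 on the left and TE11 on the right, on different horizontal scales; the open triangle is the bound for IGFBP4, and IGF2 is left out. INSR and IGF2BP2 lie above 0 in both lines, whereas IGF1R, IGF2R, IGFBP6 and IGFBP7 lie above 0 in Kyse150 and below 0 in TE11. The bars are taken from the test statistic and are too short for H19 and IGFBP3 in TE11.

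The order of the genes within a group was set per kilobase of exon. In the TE11 controls it ran from H19 at 877 CPM per kilobase to IGFBP3 at 166, IGFBP6 at 75.8, IGFBP4 at 62.3, IGFBP7 at 42.6, IGF2BP2 at 16.6, IGF1R at 11.4, IGF2R at 9.49 and INSR at 0.429. In the Kyse150 controls IGFBP7 at 47.9 and IGFBP6 at 46.0 came first and did not differ beyond their spread. IGF2BP2 followed at 23.4, IGF2R at 6.63 and IGF1R at 4.24, then H19 at 1.72, IGFBP3 at 0.990 and INSR at 0.777.

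Across the 4 groups, with all 9 libraries scaled together over the 52165 shared genes, the TE11 controls had the highest level of H19, IGF1R, IGF2R and IGFBP3 beyond the spread of the next group. IGFBP7, IGF2BP2 and INSR were highest in the Kyse150 knockdown libraries, also beyond that spread. For IGFBP6 those groups did not differ beyond their spread. The TE11 controls had 539 times the H19 level of the Kyse150 controls, 177 times the IGFBP3 level, 2.83 times the IGF1R level and 0.583 times the INSR level. The labelled TE11 knockdown libraries stood near the Kyse150 controls for IGF2R (ratio 0.993), INSR (1.0) and IGF2BP2 (0.955). They stood at 0.824 for IGF1R, 0.825 for IGFBP7 and 1.22 for IGFBP6, and lower for IGFBP3 (0.483) and H19 (0.319). The tables were made separately with different annotations, and these ratios carry no test.

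On either side of H19, genes of the imprinted 11p15 region were called in both directions. Of 20 neighbours listed, 9 were tested in TE11, with 4 higher and 4 lower in the labelled knockdown libraries, and 7 in Kyse150, with 2 higher and 3 lower. Of the 7 that passed the filter in TE11 through both groups, 4 were higher and 2 lower. The share of all genes called was 35.9% higher and 42.2% lower in TE11, and 24.8% higher and 23.3% lower in Kyse150. PHLDA2, an imprinted gene that restrains placental growth, rose from 8.16 to 61.8 CPM in TE11 (log2 fold change 2.92, SE 0.12, edgeR adjusted p = 2.87e-26). In Kyse150 it fell from 99.6 to 49.7 CPM (log2 fold change -1.0, SE 0.09, edgeR adjusted p = 5.90e-10). MRPL23, the listed coding gene nearest to H19, starts at -54.2 kb from the H19 start in chromosome coordinates. It stood at 33.9 CPM in the TE11 controls and 67.5 in the labelled knockdown libraries, a rise where H19 was lower (log2 fold change 0.99, SE 0.09). TSSC4 likewise rose from 11.9 to 62.5 CPM (log2 fold change 2.40, SE 0.11). Lower in the labelled knockdown libraries, as H19 was, were the muscle troponin genes TNNT3 at -81.9 kb and TNNI2 at -162 kb, and KCNQ1OT1 and SLC22A18 on the other side. TNNT3 went from 6.61 CPM to 0 counts, at least 38.7-fold lower, and TNNI2 from 202 counts to 3, a ratio of 34.1 (95% counting interval 11.5 to 167). Both troponin genes passed the filter on low counts through the controls alone, so a lower level was set by their entry into the test. SLC22A18 fell from 6.40 to 3.70 CPM (log2 fold change -0.79, edgeR adjusted p = 0.00208). KCNQ1OT1 fell from 2.78 to 0.675 CPM (log2 fold change -2.01, edgeR adjusted p = 0.000107), a value of -2.95 without labelled knockdown replicate 2 and -1.46 without replicate 1. In Kyse150, SLC22A18 rose from 5.81 to 17.5 CPM (log2 fold change 1.59, edgeR adjusted p = 4.44e-07) and NAP1L4 fell from 137 to 97.2 CPM (log2 fold change -0.49, edgeR adjusted p = 9.01e-06). KCNQ1OT1, the antisense RNA of the other imprinted domain, rose in Kyse150 (log2 fold change 1.21, edgeR adjusted p = 0.00554), but not without control replicate 2 (log2 fold change 0.59, edgeR adjusted p = 0.158) or with DESeq2 (adjusted p = 0.112), and its log2 fold change was 2.32 without control replicate 1.

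**Figure D4:**
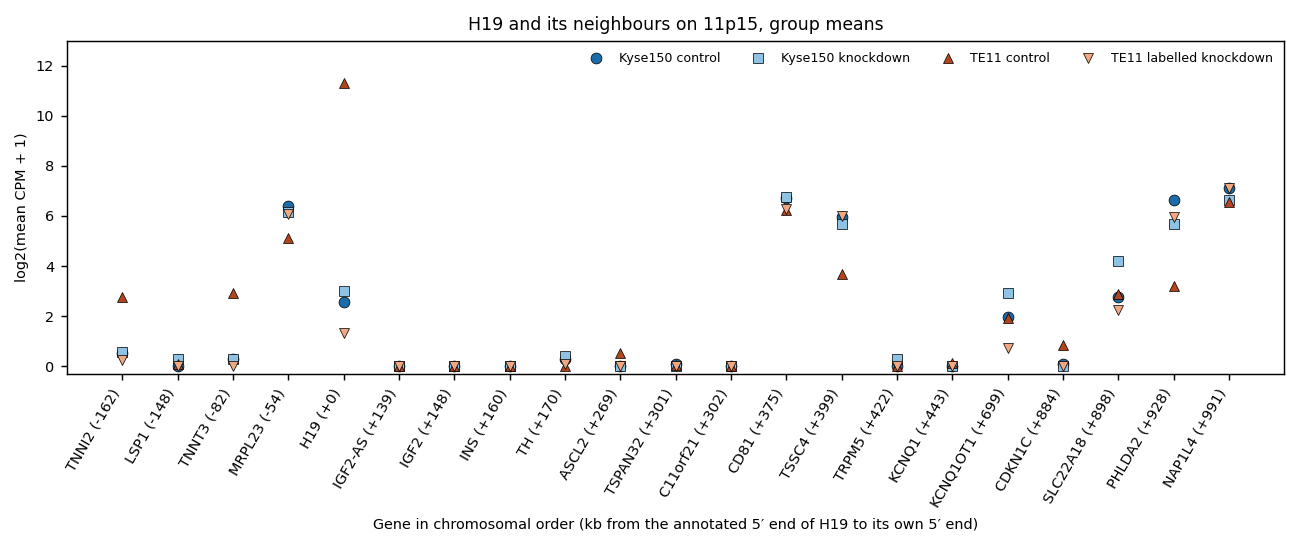
Mean level, as log2(mean CPM + 1) on the vertical axis, of H19, IGF2 and their 11p15 neighbours in chromosomal order in the 4 groups; distances in kb are from the 5′ end of H19. H19, chosen for its near lack of counts outside the TE11 controls, has the widest gap between them and the other groups. MRPL23, TSSC4, PHLDA2 and NAP1L4 are lower in the TE11 controls than in the labelled knockdown libraries.

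Of the imprinted genes elsewhere that are co-expressed with H19 in the fetus, 8 of 14 were tested in TE11. PEG10, PLAGL1, SGCE and SLC38A4 passed the filter through the controls alone and GRB10 through the labelled knockdown libraries alone, so their directions were set by entry into the test and their values are a description. Of the other 3, NNAT (log2 fold change -1.63, edgeR adjusted p = 2.04e-06) and GNAS (log2 fold change -0.25, edgeR adjusted p = 0.000141) fell and MEST did not pass (edgeR adjusted p = 0.0536). PEG10, a retrotransposon-derived gene, stood at 115 CPM in the TE11 controls and 0.225 in the labelled knockdown libraries, with 4 counts in the latter. Its log2 fold change, -8.91, was -9.80 without labelled knockdown replicate 2 and -8.37 without replicate 1. PLAGL1, a zinc finger factor that can activate H19 and IGF2, stood at 31.7 CPM and then at 0 counts, at least 186-fold lower. SGCE, the neighbour of PEG10, was at least 55.9-fold lower, from 9.51 CPM, and the amino acid transporter gene SLC38A4 at least 13.2-fold lower, from 2.24 CPM. In Kyse150 3 of the 14 genes were tested. GNAS rose (log2 fold change 0.23, edgeR adjusted p = 0.000589), GRB10 was called at an adjusted p of 0.0477 that was lost in 10 of 12 alternative fits, and NNAT did not pass (edgeR adjusted p = 0.571).

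The remaining ligand, binding protein and IGF2BP genes stood at their highest in the TE11 controls among those tested. IGF1, INS, IGFALS and IGFBP1 stood at no more than 0.553 CPM in any group. Of the 9 genes, 5 were tested in TE11, and 4 of these, IGFBP2, IGFBP5, IGFBPL1 and IGF2BP1, passed the filter through the controls alone, so that a lower level was set by entry into the test. In Kyse150 the 1 tested gene, IGF2BP3, was not called (edgeR adjusted p = 0.761). IGFBP2 stood at 53.2 CPM in the TE11 controls and was at least 311-fold lower in the labelled knockdown libraries, IGFBPL1 at least 43.0-fold and IGFBP5 at least 30.2-fold lower, all at 0 counts. IGF2BP1 and IGF2BP3 are fetal relatives of IGF2BP2. IGF2BP1 stood at 31.6 and then 0.225 CPM in TE11, with 4 counts in the labelled knockdown libraries. Its log2 fold change, -7.05, was -7.94 without replicate 2 of these libraries and -6.51 without replicate 1. IGF2BP3, with counts in both groups, fell from 84.4 to 7.34 CPM (log2 fold change -3.52, SE 0.12, edgeR adjusted p = 9.61e-29), while IGF2BP2 was higher there.

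IGFBP-related secreted proteins, which share a domain with the binding proteins, moved in both directions. CCN1, a matrix-associated signalling protein, rose from 945 to 1717 CPM in Kyse150 (log2 fold change 0.86, SE 0.05, edgeR adjusted p = 3.21e-14). In TE11 it stood at 75.1 CPM in the controls and 1007 in the labelled knockdown libraries (log2 fold change 3.74, SE 0.06), where KDM2A was not lower. CCN2 fell by 1.35 on the log2 scale in Kyse150 and was lower by 1.05 in the labelled TE11 knockdown libraries. In Kyse150, 2 of 3 tested genes rose and 1 fell, beside 24.8% and 23.3% of all genes. In TE11, 3 genes passed the filter through both groups, and CCN1 rose, CCN2 fell and KAZALD1 was not called (edgeR adjusted p = 0.705). The other 3 passed through the controls alone, and their values are a description. CCN5 (at least 197-fold), CCN3 (at least 39.0-fold) and the protease gene HTRA1 (524-fold, 95% counting interval 93.8 to 20700.2) stood lower in the labelled TE11 knockdown libraries. The fitted log2 fold change of HTRA1, -8.76, was -11.35 without labelled knockdown replicate 1 and -7.85 without replicate 2. KAZALD1 rose in Kyse150 from 8.69 to 18.8 CPM (log2 fold change 1.11, edgeR adjusted p = 2.02e-05).

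Among the proteases that cleave binding proteins and the inhibitors of these proteases, STC2 differed in opposite directions under the knockdown label of the 2 lines. STC2, a stanniocalcin that blocks the pappalysin proteases, rose from 14.3 to 44.8 CPM in Kyse150 (log2 fold change 1.65, SE 0.14, edgeR adjusted p = 1.35e-10). In TE11 it stood at 95.3 CPM in the controls and 18.0 in the labelled knockdown libraries (log2 fold change -2.41, SE 0.10). Its relative STC1, which passed the filter through the controls alone, was 383-fold lower in the labelled TE11 knockdown libraries (95% counting interval 106 to 3162), from 43.5 CPM. Its fitted log2 fold change, -8.44, was -7.53 without labelled knockdown replicate 1 and -11.88 without replicate 2. In Kyse150, 2 of 5 tested genes rose, the other being CTSD, a lysosomal protease, and none fell, beside 24.8% and 23.3% of all genes. ADAM9 and FURIN were not called (edgeR adjusted p = 0.0586 and 0.233), and ADAM9 was called lower in 6 of 12 alternative fits. In TE11, of the 6 genes that passed the filter through both groups, 2 rose and 4 fell, beside 35.9% and 42.2% of all genes, among them ADAM9 (log2 fold change -1.03), while ADAMTS1 rose from 4.70 to 53.6 CPM (log2 fold change 3.5, SE 0.14).

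Genes between the receptors and FOXO factors showed no common direction. In Kyse150, 8 of 30 tested rose and 8 fell, shares close to those over all genes. DESeq2 called 4 and 5 of them, and the higher count was 5 without control replicate 2 or without knockdown replicate 2. IRS1, the main adaptor of IGF1R and INSR, fell from 230 to 104 CPM in Kyse150 while its receptors rose (log2 fold change -1.14, SE 0.07, edgeR adjusted p = 2.23e-13). In TE11 it stood at 71.8 CPM in the controls and 215 in the labelled knockdown libraries, where IGF1R was lower (log2 fold change 1.58, SE 0.07, edgeR adjusted p = 5.06e-25). FOXO1, a transcription factor held back by AKT, rose in Kyse150 from 4.02 to 15.4 CPM (log2 fold change 1.93, SE 0.23, edgeR adjusted p = 7.42e-08). INPPL1, which codes for a lipid phosphatase, rose there (log2 fold change 0.44) and the kinase gene MTOR fell (log2 fold change -0.44). In TE11, of the 29 genes that passed the filter through both groups, 10 rose and 11 fell, beside 35.9% and 42.2% of all genes. PIK3R3, a regulatory subunit of PI3K, fell from 34.3 to 4.33 CPM (log2 fold change -2.99), SHC1 from 150 to 64.2 CPM (log2 fold change -1.22), while GRB14, an inhibitor of the insulin receptor that passed through the controls alone, was at least 81.0-fold lower, from 13.8 CPM.

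Genes that link H19 and the IGF2BP proteins to the let-7 miRNAs were the last list. In Kyse150, 4 of 7 tested fell and none rose, beside 23.3% and 24.8% of all genes, and 3 of the 4 calls were kept in all 12 alternative fits. They were KHSRP (log2 fold change -0.48), HMGA2 (-0.73), ELAVL1 (-0.31) and DICER1 (-0.28), of which the call of DICER1 was lost with DESeq2 (adjusted p = 0.104) and in the edgeR fits that left out control replicate 1 (adjusted p = 0.214) or knockdown replicate 1 (adjusted p = 0.171). In TE11, of the 7 that passed the filter through both groups, 4 rose and 3 fell, beside 35.9% and 42.2% of all genes. HMGA2, a chromatin protein and let-7 target, rose there from 49.9 to 79.3 CPM (log2 fold change 0.67), AGO2 from 36.9 to 87.7 CPM (log2 fold change 1.25) and KHSRP from 181 to 320 CPM (log2 fold change 0.82).

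**Figure D5:**
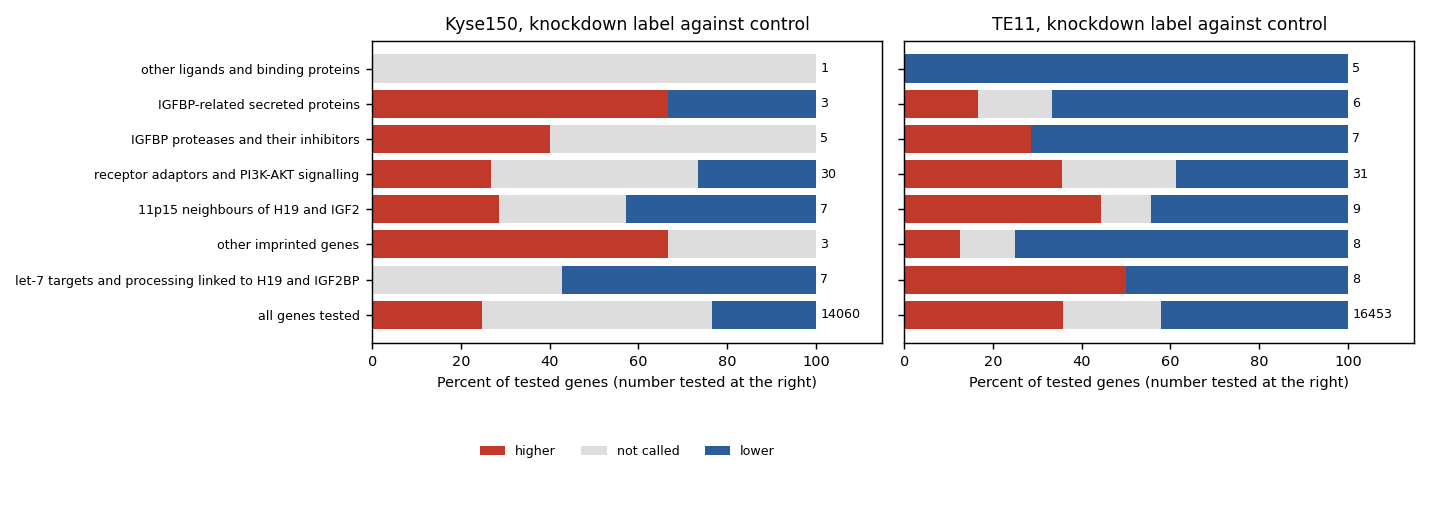
Percent of the tested genes of each list called higher, not called or called lower (edgeR, adjusted p under 0.05), with the number tested at the right and all genes tested as the lowest bar, for Kyse150 on the left and TE11 on the right. In TE11, 4 of the 5 genes of the ligand and binding protein list passed the filter through the controls alone, which set their direction; the PI3K-AKT list lies near the bar of all genes in both lines.

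The genes with the most similar profile over the 9 libraries were found among 12718 genes, by the root mean square difference of centred log2(CPM + 1). For IGFBP4 these were SLC12A7 (0.0201), GPX2 (0.153), AKR1B10 (0.185), MSLN (0.187) and SERPINB3 (0.235). SLC12A7 was at 141 CPM in the TE11 controls and at 0 in the other groups, nearly the same values as IGFBP4. Because IGFBP4 was chosen for this profile, its list could hold only genes high in the TE11 controls and low elsewhere. That list is a description, and nothing is read from it. For IGFBP3 they were GPX2 (0.246), SERPINB3, AKR1B10, FBLN2 and IGFBP4 (0.332). For IGFBP7 they were PCDH1 (0.0736), ZBTB4, IFITM3, NME4 and GRINA. The members of these lists depended on the pseudocount: with 5 in place of 1, none of the 5 genes named for IGFBP3 and 2 of the 5 named for IGFBP4 remained.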

How the data were processed

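Polyadenylated RNA of 9 libraries was measured. The authors deposited raw counts of fragments per gene, with a table for each line. Per the submitters' processing notes, HTSeq 0.9.1, HISAT2 2.1.0, DESeq2 and bcl2fastq 2.19 were used. Those notes list GRCh38.p13 and also GRCh37.p13, without assigning a build to a table. Between 42.3% and 44.5% of a column fell on no gene and stayed out of library sizes and tests.

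Symbols came from a table of gene names, then GENCODE 29, and named 90.5% of Kyse150 identifiers. Genes passing filterByExpr (minimum count 10, total 15) were scaled by TMM and fitted per line with edgeR 4.0.16 (robust quasi-likelihood, group only; R 4.3.3), p-values of all tested genes being adjusted together (Benjamini-Hochberg, threshold 0.05). Scripts were tested on simulated data. A group at 0 was set at 3 counts over the group; ratios from 1 to 3 counts have exact 95% intervals. Both cover counting error only. An SE is the size of the log2 fold change over the square root of edgeR's F statistic. It is too small where a large fold rests on few counts, as for H19 and IGFBP3 in TE11. Levels between genes are CPM per kilobase of GENCODE exons.

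The 10 genes, the lists and the tests were chosen with earlier results of these data known. The text names KDM2A, the 10 genes, whole lists of up to 8 genes or the 4 genes with the smallest p in each line, further list genes chosen after their values were seen, and the 5 most similar profiles of IGFBP3, IGFBP4 and IGFBP7; those of H19 are not reported here. Alternatives were DESeq2 1.42.0, other scalings and filters, a replicate block, a joint fit and each replicate left out. Same-numbered replicates did not deviate together (r = -0.149 in Kyse150, -2.56e-05 and -0.0252 in TE11).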

Additional observations from a re-analysis of the deposited data

Results flagged for a closer look

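In 5 of the 10 genes, H19 among them, every Kyse150 knockdown library lay above its controls and every labelled TE11 knockdown library below. The same pattern was found in 20.1% of the 13276 genes tested in both lines, and the opposite one in 22.3%. IGF2 and IGFBP4 are not among those 13276 genes. H19 was chosen for its near lack of counts outside the TE11 controls, so its direction in TE11 was set by that choice. Its Kyse150 groups were barely apart, at 6.12 CPM in control replicate 2 and 6.26 CPM in knockdown replicate 1. The difference of the log2 fold changes, TE11 minus Kyse150, was -11.21 for H19, -2.59 for IGF1R, -1.30 for IGFBP7, -1.26 for IGFBP6 and -0.92 for IGF2R. These differences between the lines were not tested, and KDM2A goes against the label of the TE11 knockdown libraries.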

How the results depend on the processing

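All 6 Kyse150 calls among the 10 genes were kept in the 12 alternative fits, and 4 of the 10 were fitted at less than 50% of the control level in TE11 in each fit. Over all genes, edgeR called 6771 in Kyse150 (3490 higher, 3281 lower), and DESeq2 called 3931 (1876 higher, 2055 lower), the cause of which was not tested. Leaving out 1 library gave 5409 to 5916 calls in Kyse150, and 11827 to 12596 against 12845 in TE11. The replicate numbers share only a number, and the replicate block gave 6395 calls in Kyse150 and 12218 in TE11. Crossing the numbers in Kyse150, added after seeing the data, gave 7372. Not-called list genes turned in Kyse150 when a library was left out: IGF2BP3 lay between -0.0434 and 0.22, and NNAT between -0.53 and 0.0508, on the log2 scale; the cause was not tested. Without TMM factors all 40 positions in the order of levels stayed, and with the longest transcript as length 38 did. Depth limits most the genes with few counts, H19 and IGFBP3 outside the TE11 controls and INSR in the controls of both lines.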
